A study of Saccharomyces cerevisiae S288C with 12 samples.

Results

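The genes described here encode the peroxiredoxins of budding yeast, the thioredoxins and the thioredoxin reductase that keep them reduced, and a superoxide dismutase and a catalase that act beside them. They were taken by gene symbol from the R64 annotation, and all 10 (TSA1, TSA2, AHP1, PRX1, DOT5, TRX1, TRX2, TRR1, SOD1 and CTT1) were found among 6002 nuclear protein-coding genes. A Cse4 peak was assigned to a gene when it overlapped the gene or 1 kb on either side by at least 1 base, and this stretch is called the window of the gene. The group was chosen by the measured peaks of these same libraries, the place and fold of the Cse4 peaks at TSA1 among them, so the peak counts and levels of the 10 genes are a description and carry no test.

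Peroxiredoxins reduce hydrogen peroxide and organic peroxides with a reactive cysteine. The oxidised cysteine is restored by thioredoxin in most family members, and thioredoxin is in turn reduced by thioredoxin reductase at the cost of NADPH. Superoxide dismutase turns superoxide into hydrogen peroxide, which is the substrate of catalase. Cse4 is the yeast form of CENP-A, the histone H3 variant of centromeric nucleosomes, and when it is overproduced it is also found on chromosome arms.

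The study mapped Cse4 by chromatin immunoprecipitation and sequencing in strains that overexpress mutant or wild-type Cse4, and it asks whether lysines 215 and 216, a region of Cse4 that carries SUMO, matter for where Cse4 is deposited. The strains compared were psh1delta pGAL-6His-3HA-cse4 K215/216A, with both lysines replaced by alanine; psh1delta pGAL-6His-3HA-cse4 K215/216R, with both replaced by arginine; and psh1delta pGAL-6His-3HA-CSE4 with wild-type Cse4, called WT here. All strains, WT included, lack Psh1, a ubiquitin ligase for Cse4, and all express a tagged Cse4 from the GAL promoter, so WT is itself an overexpression strain and no strain with Psh1 or with Cse4 at its natural level was analysed here. Cells grew in synthetic complete medium with 2% raffinose at 30 °C and received 2% galactose for 2 h. Lysed spheroplasts were sonicated to fragments of about 100 bp, and the tagged protein was collected on anti-HA agarose beads. Each strain had 2 immunoprecipitated libraries, 6 in all, and the 6 input libraries were not used. The labels do not say whether replicates were separate cultures, so the spread between them may be technical. In a bulk culture, Cse4 at a place in more of the cells cannot be told apart from more Cse4 at that place in each cell.

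The lists held 4575 and 4725 peaks in K215/216A replicates 1 and 2, 3604 and 4822 in K215/216R, and 3123 and 4720 in WT. Depth differed between libraries: the fragments per base of the genome background, recovered from the lists, came to 146 and 148 in K215/216A, 86.2 and 156 in K215/216R, and 59.5 and 126 in WT. The 2 shallowest libraries, K215/216R replicate 1 and WT replicate 1, had the shortest lists and the highest median folds: the median was 1.43 and 1.45 in K215/216A, 1.57 and 1.46 in K215/216R, and 1.66 and 1.48 in WT. Fold is the authors' own value for each peak, and it is set side by side across libraries below without a test. How many of all genes separate the strains in fold or coverage was not counted. With 2 libraries per strain, such separations below are description only. For the main peaks that some libraries lacked, it is said below whether their pileup would still pass at a genome background of 59.5, called the lowest depth. Over all 6002 genes, a window peak was found for 81.1 ± 0.51% of genes per library in K215/216A (SD, n = 2), 76.5 ± 7.94% in K215/216R and 72.8 ± 12.7% in WT. The differences were 8.38 percentage points for K215/216A minus WT, 3.79 for K215/216R minus WT, 4.59 for K215/216A minus K215/216R and 6.09 for both mutants minus WT. None exceeded the spread between replicates of at least 1 of the strains compared, with 2-sided exact permutation p values of 1, 0.667, 1 and 0.667, all 1 after Benjamini-Hochberg adjustment over the 4 comparisons. With all libraries scaled to the lowest depth the 4 differences were 1.62, 1.05, 0.566 and 1.33 points, in the same order. The smallest p this design allows is 0.333 for 2 libraries against 2 and 0.0667 for 4 against 2.

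Nearly every member had Cse4 close by in every strain. A window peak in both libraries was found for 10 of 10 members in K215/216A, 10 of 10 in K215/216R and 9 of 10 in WT, where 75.1% of all genes were called in K215/216A, 68.8% in K215/216R and 62.1% in WT. TRR1, the reductase, was the member not called in WT, because WT replicate 1 had no peak in its window. A peak in all 6 libraries was found for 9 of 10 members and for 54.3% of all genes. At the edge of the window rule, the peaks with the smallest overlap were 16 bases at TRR1 in K215/216A replicate 1, with a fold of 1.20, and 32 bases at CTT1 in WT replicate 1, with a fold of 1.80. The nearest peaks left out lay 4 bases beyond the TRX2 window in K215/216R replicate 2, with a fold of 1.48, and 27 bases beyond the TRR1 window in K215/216R replicate 2, with a fold of 1.34.

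Where the summit fell was less uniform than the presence of a peak. The summit is the highest point of a peak, and a promoter was called in a strain when a summit lay within 500 bp upstream of the gene start in both libraries. By this rule 3 members were called in K215/216A (TSA1, DOT5 and TRR1), 2 in K215/216R (DOT5 and TRX2) and 3 in WT (DOT5, TRX1 and TRX2), beside 23.8% of all genes in K215/216A, 17.6% in K215/216R and 15% in WT. With so few members these counts do not set the members apart from all genes, and a single library decides the counts. Replicate 1 alone called 6 members in K215/216A and 6 in WT, where it called 31.2% and 19.0% of all genes. Replicate 2 alone called 5 in K215/216R, beside 28.4% of all genes. Summits inside the gene were called for CTT1 alone, 1 of 10 members, in each strain. The shares of all genes were 26.8% in K215/216A, 24.7% in K215/216R and 22.4% in WT. With so few members this count does not set them apart from all genes. CTT1 is also the longest member at 1689 bp, the others having 312 bp (TRX1) to 960 bp (TRR1). An effect of gene length was not tested. In the 500 bp downstream of the gene end, 4 members were called in K215/216A (AHP1, PRX1, DOT5 and SOD1), 6 in K215/216R (TSA1, AHP1, DOT5, TRX1, TRX2 and SOD1) and 5 in WT (TSA1, AHP1, DOT5, TRX1 and SOD1). The downstream shares of all genes were 19.7% in K215/216A, 17.9% in K215/216R and 13.7% in WT.

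**Figure D1:**
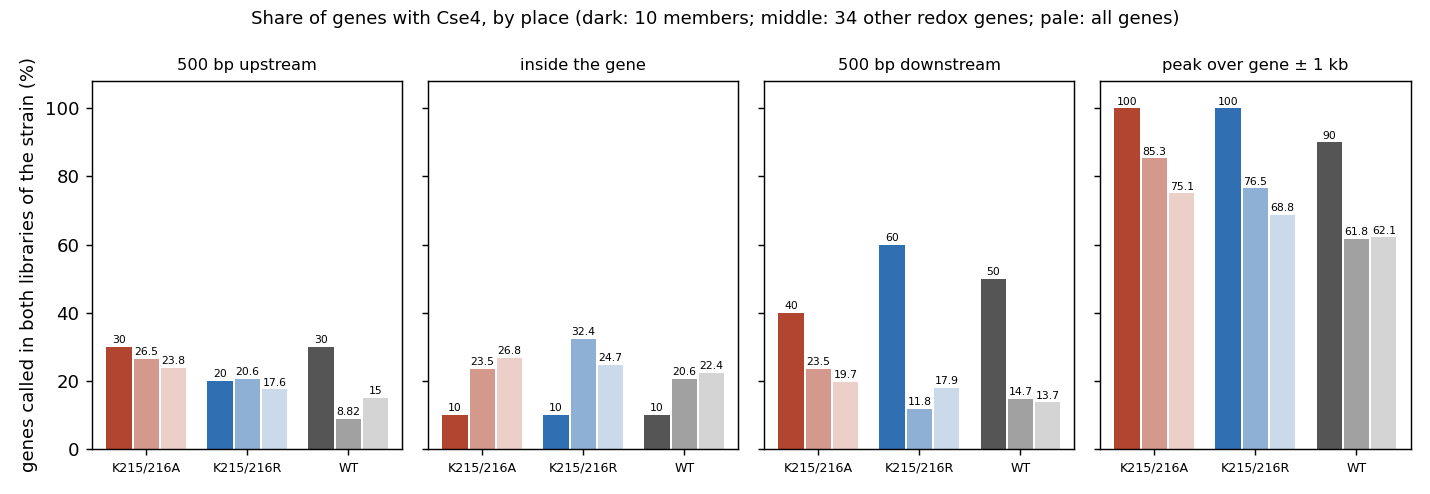
Percent of genes called in both libraries of a strain, in 4 panels by place (summit within 500 bp upstream, inside the gene, within 500 bp downstream, or a peak over the gene and 1 kb on either side), for K215/216A (red), K215/216R (blue) and WT (grey). In each colour the dark bar is the 10 members, the middle bar the 34 other redox genes and the pale bar all 6002 genes, and the dark bar is the lowest of the 3 inside genes and the highest downstream and over the window. The dark bars rest on few genes, and gene length was not taken into account.

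TSA1 encodes the major cytosolic peroxiredoxin and had an upstream peak in only some of the libraries. The gene lies at XIII:220138-220728 (sacCer3, plus strand), 259 bp past the end of USA1 and 677 bp before the start of YOX1, both on the same strand. A Cse4 summit 4 to 8 bases before the TSA1 start was present in K215/216A replicates 1 and 2 and in K215/216R replicate 2, with the authors' fold, which sets the fragment pileup of a summit against its local background, at 2.01, 1.98 and 1.84. No peak of K215/216R replicate 1 or of either WT library covered this position. So K215/216A and WT did not overlap at this site, while K215/216R was split between its replicates.

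The TSA1 upstream peaks were among the higher ones of their libraries. By fold they ranked above 95.4% of the peaks in K215/216A replicate 1, 94.3% in K215/216A replicate 2 and 87.2% in K215/216R replicate 2. The recovered pileup in K215/216A was 309 fragments (95% Poisson interval 276 to 345, counting error only) over a local background of 153 in replicate 1, and 306 (273 to 342) over 154 in replicate 2. In K215/216R replicate 2 it was 301 (268 to 337) over 163. Pileup and background were solved from the fold and p of peaks already called, so an interval above its background adds no support. All 3 peaks would have passed at the lowest depth and also passed a −log10 q of 10, with values of 25.4, 24.5 and 19.6. In WT the nearest upstream peak was that of replicate 2, inside USA1 with its summit 511 bp before the TSA1 start and a fold of 1.38. In the authors' deposited table of merged regions, K215/216A had a region at XIII:219380-220288 with a mean fold of 1.72 that joins 3 peaks of 1.17 to 2.01, and neither K215/216R nor WT had a region over the TSA1 start.

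Between K215/216A and WT, 2 of 10 members, TSA1 and TRR1, had a promoter summit in both libraries of K215/216A and none in WT, beside 4.9% of all genes. The reverse was found for 0 members and 1.17% of all genes. Between K215/216R and WT, 0 members were called in K215/216R alone (1.32% of all genes) and 1 in WT alone (1.12%). Between the mutants, 0 members were called in K215/216A alone (3.75%) and 0 in K215/216R alone (0.95%). A promoter summit in exactly the 3 libraries of TSA1 was found for 80 genes, or 1.33% of all genes, and TSA1 and TRR1 were both among them. This was the most frequent pattern of 3 libraries, the next having 41 genes, and these 3 are the deepest of the 6 libraries. After all libraries were scaled to the lowest depth 44 genes had the pattern, and TSA1 was still one of them while TRR1 was not. By the mean percentile of the promoter peak in K215/216A, where TSA1 had 94.8 and was second of the 80, the genes nearest to it were YML100W-A (95.5), VMA5 (93.5), CAR1 (88.6), MRPL8 (85.1) and RBA50 (83.9).

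Downstream of TSA1 all libraries carried Cse4. A summit 1122 or 1123 bp from the TSA1 start, 146 bp before the start of YOX1, a homeodomain repressor gene, had a fold of 2.06 and 2.26 in K215/216A, 2.49 and 2.12 in K215/216R, and 2.86 and 2.02 in WT. It was the best peak of the TSA1 window in every library, above 93.7% to 99.0% of that library's peaks, and the folds of the 3 strains overlapped. It is nearer to the YOX1 start than to any other gene start. A smaller summit 52 to 140 bp past the end of TSA1 had a fold of 1.42 and 1.59 in K215/216R and 1.88 and 1.73 in WT. K215/216A had no summit there, but its peaks covered the same positions.

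The upstream and downstream peaks were long in K215/216A and covered most of the TSA1 window there. Peaks covered 69.3% and 83.8% of the window in K215/216A, 24.2% and 57.2% in K215/216R, and 29.2% and 40.2% in WT. The means were 76.5 ± 10.2%, 40.7 ± 23.3% and 34.7 ± 7.78% (SD, n = 2 each), so both K215/216A values lay above all values of the other strains. In all, 744 bases of the window were covered in both K215/216A libraries and in no WT library, of which 298 were covered in no K215/216R library either. The lowest coverage was in K215/216R replicate 1 and WT replicate 1, which are also the shallowest libraries.

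**Figure D2:**
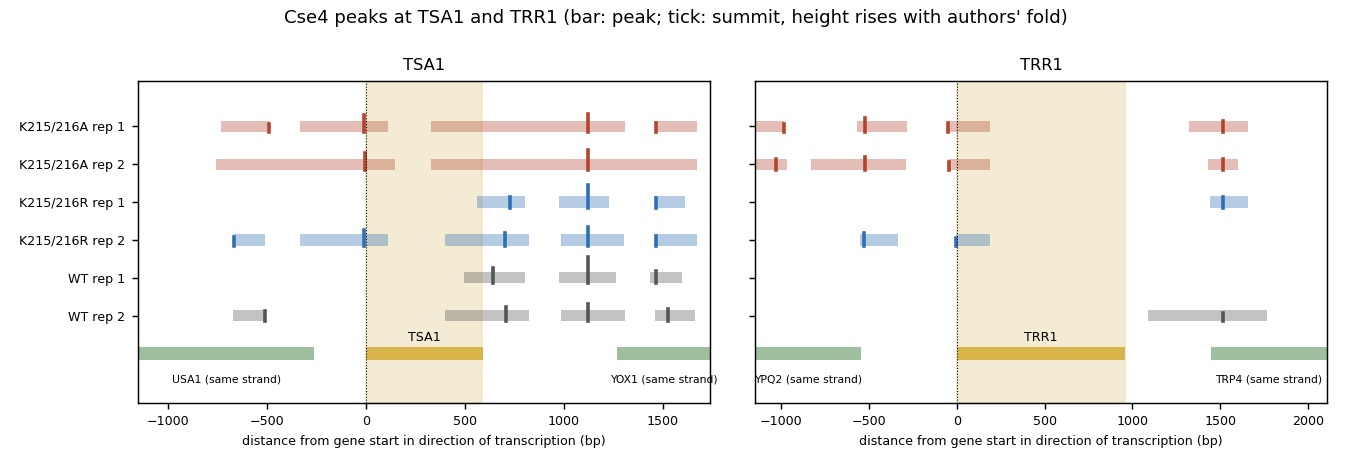
Cse4 peaks around TSA1 and TRR1 in each library, K215/216A at the top and WT at the bottom; the x axis is the distance in bp from the gene start in the direction of transcription, pale bars are peaks and upright ticks are summits whose height rises with the authors' fold. The summit at the TSA1 start and that near −525 bp at TRR1 are seen in K215/216A replicates 1 and 2 and K215/216R replicate 2, and the summit 1122 bp past the TSA1 start is seen in all 6 libraries.

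TRR1, which encodes the cytosolic thioredoxin reductase, had its upstream peaks in the same libraries as TSA1. It lies at IV:1183299-1184258 on the plus strand, between YPQ2 and TRP4. A summit 525 to 531 bp upstream, just past the YPQ2 end, had a fold of 1.73 and 1.67 in K215/216A and 1.61 in K215/216R replicate 2, and no other library had a peak over it. These 3 peaks would have passed at the lowest depth. Closer to the gene, K215/216A had summits 53 and 45 bp before the start with folds of 1.31 and 1.24, and K215/216R replicate 2 had one 3 bp before it with a fold of 1.20.

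These near-start peaks, the ones that made the TRR1 promoter call, were low: they exceeded only 24.7%, 10.9% and 5.74% of the peaks of their libraries, and none would have passed at the lowest depth. On the other side, a summit 1519 bp from the TRR1 start and 71 bp inside TRP4, a tryptophan synthesis gene, had a fold of 1.49 and 1.45 in K215/216A, 1.43 in K215/216R replicate 1 and 1.26 in WT replicate 2. That of WT replicate 2 would not have passed at the lowest depth, and the other 3 would. No base of the TRR1 window was covered in all 6 libraries, and 537 bases were covered in both K215/216A libraries and in no WT library.

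TSA2 encodes a close paralogue of Tsa1 and differed from TSA1 in its Cse4 pattern. It lies at IV:1365072-1365662 on the minus strand. The site shared by all libraries was 589 or 590 bp upstream, in the gap just past the end of GUK1, with a fold of 1.54 and 1.31 in K215/216A, 1.58 and 1.44 in K215/216R, and 1.49 and 1.50 in WT. The strains overlapped, and the peaks stood above 23.6% to 66.3% of the peaks of their libraries. The only promoter summit was in WT replicate 1, 204 bp upstream with a fold of 1.66, a position that peaks of K215/216A replicate 2, K215/216R replicate 2 and WT replicate 2 also covered. No library had a summit within 500 bp upstream of both paralogues. TSA1 and TSA2, like TRX1 and TRX2, are similar in sequence, and how reads that match more than 1 place were treated is not given in the sources used here, so peaks inside these genes are uncertain. No summit lay inside TSA1, TSA2 or TRX1 in any library, and 1 lay inside TRX2.

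AHP1, the gene of a cytosolic peroxiredoxin active on alkyl hydroperoxides, carried the site with the highest fold of the group in 5 of 6 libraries, the exception being WT replicate 1. It lies at XII:368781-369311 on the plus strand and faces CCW12, a cell wall protein gene on the opposite strand. A summit 8 or 9 bp past the AHP1 end had a fold of 2.64 and 2.72 in K215/216A, 2.57 and 2.99 in K215/216R, and 2.24 and 2.19 in WT. All 4 mutant values lay above both WT values. The pileups were 440 and 445 fragments in K215/216A, 229 and 468 in K215/216R, and 145 and 279 in WT, and they follow the depth of the libraries, so the folds are set side by side only. Within its own library the site stood above 99.5% and 99.6% of peaks in K215/216A, 98.4% and 99.7% in K215/216R, and 93.4% and 97.0% in WT. A promoter summit 112 bp upstream was listed in K215/216R replicate 1 (fold 1.72) and WT replicate 1 (fold 1.65), but peaks of all 6 libraries covered that position, those of the 4 deeper libraries with their summit at the gene end.

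The AHP1 upstream region also holds the start of YLR108C on the opposite strand. A summit 565 or 566 bp before AHP1, 91 bp from the YLR108C start, had a fold of 1.53 and 1.62 in K215/216A, 1.90 in K215/216R replicate 2 and 1.70 in WT replicate 2. In WT replicate 1 the summit lay 620 bp before AHP1 with a fold of 2.08. K215/216R replicate 1 had no peak there, and all 5 peaks of the other libraries would have passed at the lowest depth.

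PRX1, the gene of the mitochondrial peroxiredoxin, shares a 729-bp divergent promoter region with KIP1, a kinesin gene. PRX1 lies at II:100371-101156 on the minus strand. Peaks of all 6 libraries covered a single stretch of 604 bases from 323 to 926 bp upstream of PRX1, which reaches into KIP1. The best fold there was 1.41 and 1.86 in K215/216A, 2.19 and 1.93 in K215/216R, and 2.50 and 1.94 in WT. The value of K215/216A replicate 1 was the lowest, and K215/216A lay below both other strains without overlap, although replicate 2 was close in all strains. In percentile within the library the values were 45.7 and 90.6 in K215/216A, 93.7 and 91.3 in K215/216R, and 97.2 and 91.7 in WT, so K215/216R and WT overlapped. The summits were spread over this stretch: 836 and 887 bp upstream in K215/216A, 502 and 886 bp in K215/216R, and 393 and 836 bp in WT, so only WT replicate 1 met the promoter rule.

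DOT5, the gene of a nuclear thiol peroxidase, was the only member with a promoter summit in all 6 libraries, beside 9.5% of all genes. It lies at IX:334882-335529 on the plus strand. The summit was 30 to 47 bp before the start, with a fold of 1.34 and 1.31 in K215/216A, 1.35 and 1.37 in K215/216R, and 1.42 and 1.46 in WT. These are low peaks, above 16.6% to 45.6% of those of their libraries, and both WT folds were the highest. By percentile within the library the strains overlapped, with 30.9 and 24.4 in K215/216A, 16.6 and 34.3 in K215/216R, and 17.5 and 45.6 in WT. The DOT5 window also held peaks inside its neighbours: summits 925 to 954 bp upstream inside TIR3, in 5 libraries with folds of 1.30 to 1.78, and summits 995 to 1093 bp from the start inside EST3, a telomerase subunit gene, in all 6 with folds of 1.38 to 1.75.

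**Figure D3:**
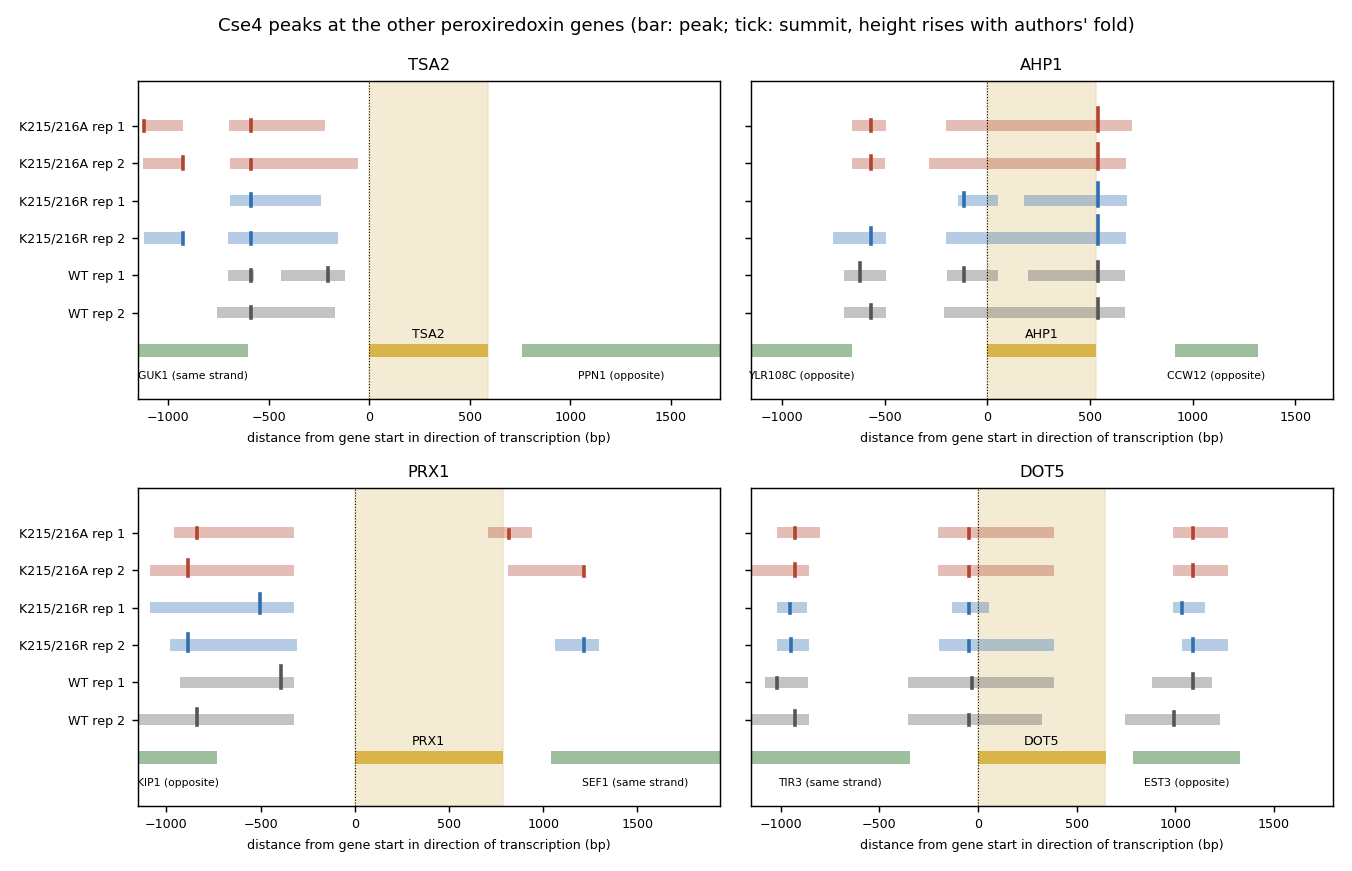
Cse4 peaks around TSA2, AHP1, PRX1 and DOT5 in each library, K215/216A at the top and WT at the bottom; the x axis is the distance in bp from the gene start in the direction of transcription, pale bars are peaks and upright ticks are summits whose height rises with the authors' fold. The AHP1 summit 8 or 9 bp past the gene end, the DOT5 summit 30 to 47 bp before the start and the TSA2 summit 589 or 590 bp upstream recur in all 6 libraries, while the PRX1 summits are spread over a common covered stretch.

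TRX1 and TRX2 encode the cytosolic thioredoxins, the electron donors of most peroxiredoxins. TRX1 (XII:231702-232013, minus strand) had a summit 67 to 74 bp upstream in K215/216A replicate 1 (fold 2.20) and in WT replicates 1 and 2 (1.71 and 1.82). Neither K215/216R library had a promoter summit, so TRX1 was the only member called in both WT libraries and in neither K215/216R library, beside 1.12% of all genes. Peaks of all 6 libraries nevertheless covered the position. In K215/216A replicate 2 and in both K215/216R libraries the peak over it had its summit 33 to 87 bp past the TRX1 end, with folds of 1.52, 1.69 and 1.62, so the call rests on which point of a long peak was highest. TRX1 also had the largest share of its window covered in all 6 libraries, 31.4%.

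TRX2 (VII:912913-913227, minus strand) was called in both K215/216R and both WT libraries, with summits at different places. The summit was 136 bp upstream in K215/216A replicate 1 (fold 1.88) and in both K215/216R libraries (1.79 and 1.82). It was 40 and 2 bp upstream in WT, with folds of 1.93 and 1.20, and 32 bp inside the gene in K215/216A replicate 2, with a fold of 1.73. A single stretch of 297 bases over the gene start was covered in all 6 libraries. The fold of 1.20 in WT replicate 2 stood above only 3.14% of the peaks of that library and would not have passed at the lowest depth, which leaves TRX2 called in K215/216R and not in WT under that setting.

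SOD1 and CTT1 encode the copper-zinc superoxide dismutase and the cytosolic catalase. SOD1 (X:622550-623014, minus strand) had no promoter summit in any library. The highest summit of every library lay on the 3′ side, in the convergent gene URA8, whose end is 59 bp away. A stretch of 438 bases there was covered in all 6 libraries, with best folds of 1.55 and 1.72 in K215/216A, 1.91 and 1.94 in K215/216R, and 2.09 and 1.95 in WT. In fold K215/216A was lowest and WT highest, with no overlap between the strains, although replicate 2 of K215/216R and of WT were close, and WT replicate 1, the highest, is the library with the highest median fold. In percentile within the library the values were 68.6 and 83.5 in K215/216A, 84.2 and 91.6 in K215/216R, and 88.8 and 92.0 in WT, so K215/216R and WT overlapped. A summit 20 bp inside SOD1 was listed in K215/216A replicate 2 and WT replicate 2, with a fold of 1.46 in each. In K215/216A replicate 1 and K215/216R replicate 2 a single peak ran from URA8 over the whole of SOD1 and past its start.

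CTT1 (VII:654634-656322, plus strand) was the only member with a summit inside the gene in all 6 libraries, beside 13.1% of all genes. This summit, 518 or 519 bp from the start, had a fold of 1.36 and 1.47 in K215/216A, 1.49 and 1.62 in K215/216R, and 1.85 and 1.65 in WT. In fold the strains did not overlap, with K215/216A lowest and WT highest, and replicate 2 of K215/216R and of WT were again close. The K215/216A libraries also had the lowest median folds over all peaks, and WT replicate 1 the highest. In percentile within the library the values were 34.7 and 54.3 in K215/216A, 37.2 and 71.5 in K215/216R, and 72.2 and 72.0 in WT, and here K215/216A and K215/216R overlapped. A promoter summit 248 bp upstream was present in K215/216A replicate 1 and K215/216R replicate 2 only, with folds of 1.54 and 1.49, and both peaks would have passed at the lowest depth.

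**Figure D4:**
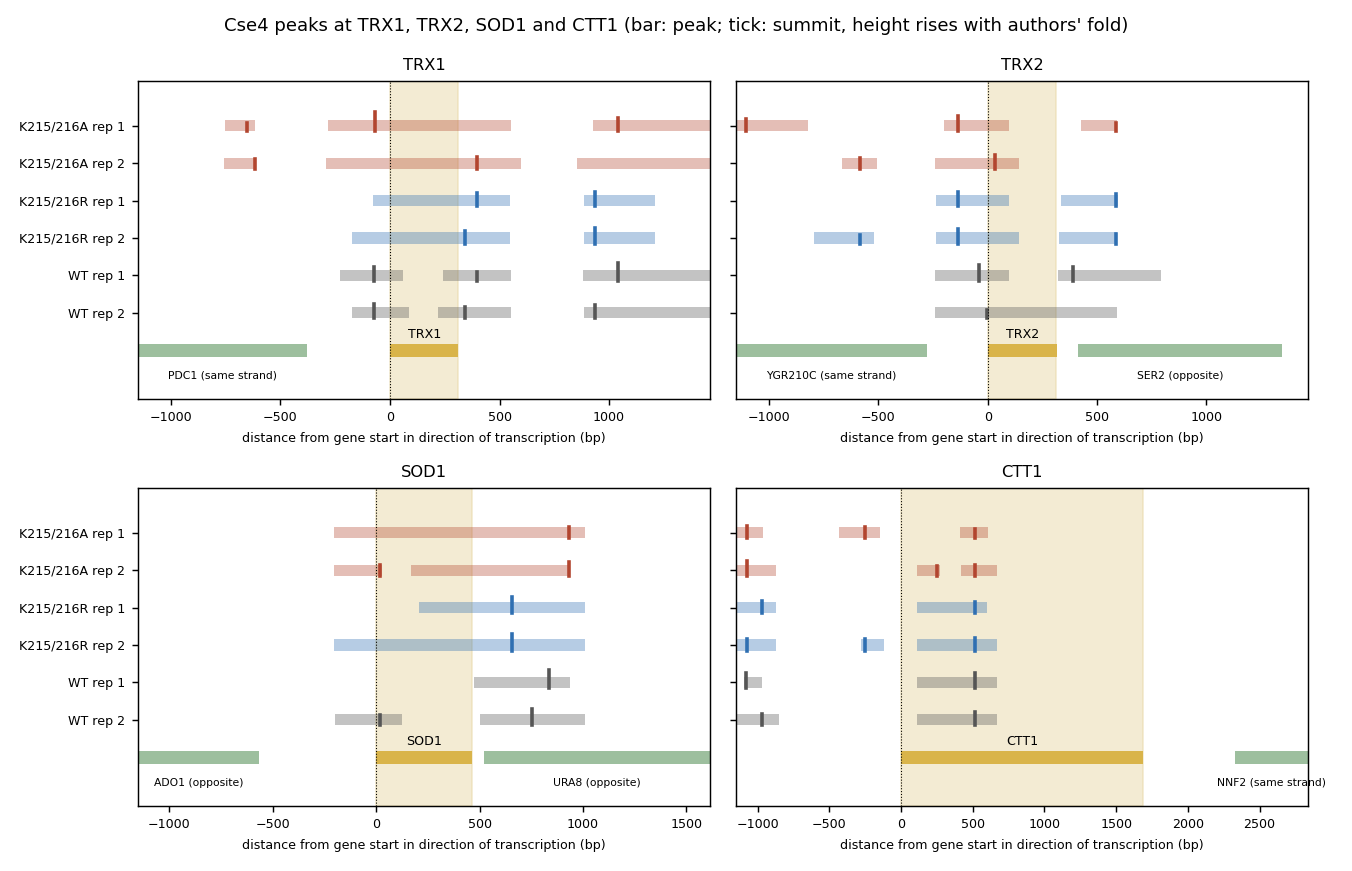
Cse4 peaks around TRX1, TRX2, SOD1 and CTT1 in each library, K215/216A at the top and WT at the bottom; the x axis is the distance in bp from the gene start in the direction of transcription, pale bars are peaks and upright ticks are summits whose height rises with the authors' fold. TRX1 and TRX2 peaks span the gene start in all 6 libraries with summits at varying places, and the CTT1 summit 518 or 519 bp inside the gene recurs in all 6 libraries. The highest SOD1 summits lie toward URA8, while peaks of 4 libraries also cover the SOD1 start.

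The members were ordered by each library's best window peak, ranked by fold within that library. That peak was often not at the member itself. For TSA1 it was always the summit near YOX1, and for SOD1 it lay inside URA8 in every library. In both K215/216A libraries the best CTT1 peak had its summit outside the window, 1074 bp upstream. The best TRX1 peak of K215/216A replicate 2 also had its summit outside, 1532 bp from the start. The percentiles therefore describe windows. AHP1 had a median percentile over 6 libraries of 98.9 and TSA1 of 97.0, followed by PRX1 at 91.5, TRX1 at 88.0, SOD1 at 86.5, TRX2 at 82.1, CTT1 at 72.1, TRR1 at 70.8 over 5 libraries, DOT5 at 62.6 and TSA2 at 52.3. Neighbours in this order overlapped in their ranges, so the order between them is not resolved. The range of AHP1, 93.4 to 99.7, and that of TSA1, 93.7 to 99.0, lay above the whole range of TSA2, 49.7 to 66.3. The widest ranges were those of TRX2, 3.14 to 92.1, and TRR1, 11.2 to 85.4. The median over the members with a peak was 82.2 and 84.6 in K215/216A, 76.2 and 87.9 in K215/216R, and 88.8 and 85.1 in WT, where the median over all genes with a peak was 65.3 to 70.4.

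**Figure D5:**
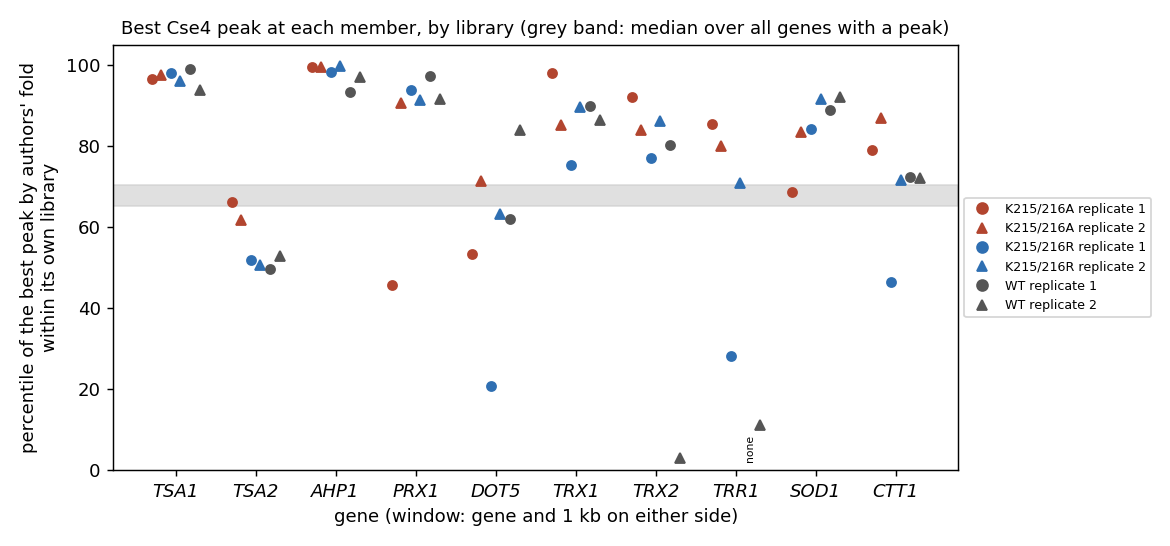
Percentile of the best Cse4 peak in the window of each member, by the authors' fold within its own library (y axis, percent of that library's peaks with a lower fold), for K215/216A (red), K215/216R (blue) and WT (grey), with circles for replicate 1 and triangles for replicate 2. AHP1 and TSA1 lie at 93.4 or above in every library, TSA2 lies at 49.7 to 66.3, TRR1 has no point for WT replicate 1, and the grey band is the range of library medians over all genes with a peak, 65.3 to 70.4. The best peak can lie at a neighbour, as near YOX1 for TSA1 and inside URA8 for SOD1.

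The recurrent sites of the group were few. Summits within 20 bp of each other were joined into sites, which gave 56 sites in the 10 windows, of which 5 were seen in all 6 libraries (8.93%) and 24 in a single library (42.9%). Over all 12199 sites of the genome these shares were 4.48% and 51.4%. The 5 sites were those near YOX1 at TSA1, past GUK1 at TSA2, at the AHP1 end, at the DOT5 start and inside CTT1. The nearest gene start was that of the member for 3 of the 5 and that of a neighbour for 2. Over all 56 sites it was that of the member for 31 and that of another gene for 25. This counts starts only, and a site nearest to the member's start can lie inside a neighbour. The SOD1 sites inside URA8 and the TSA1 sites inside USA1 were of this kind. On average 16.9% of a member's window was covered in all 6 libraries and 47.8% in none, against 5.62% and 73.1% over all genes.

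The wider thiol redox and antioxidant system was represented by 34 other genes. They encode glutaredoxins, glutathione enzymes, mitochondrial thioredoxin and its reductase, sulfiredoxin, peroxidases and methionine sulfoxide reductases. Others encode a further dismutase, a copper chaperone of superoxide dismutase and a further catalase. The rest encode stress regulators and enzymes of the pentose phosphate pathway, which supplies NADPH. A window peak in both libraries was found for 29 of 34 genes in K215/216A (85.3%), 26 in K215/216R (76.5%) and 21 in WT (61.8%), beside the 75.1%, 68.8% and 62.1% of all genes. A promoter summit in both libraries was found for 9 in K215/216A (26.5%), 7 in K215/216R (20.6%) and 3 in WT (8.82%), beside the 23.8%, 17.6% and 15% of all genes. At the lowest depth the window counts were 22, 23 and 19 and the promoter counts 8, 6 and 3, in the same order of strains. A single library decides the WT counts: WT replicate 2 alone gave 32 window calls and 11 promoter calls, and WT replicate 1, the shallowest, gave 21 and 5. Of all genes, WT replicate 2 called 81.7% by window and 28.3% by promoter, and WT replicate 1 called 63.8% and 19.0%.

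A promoter summit in all 6 libraries was found for 3 of the 34 genes (8.82%), near the 9.5% of all genes. They were GSH1, which encodes the first enzyme of glutathione synthesis, MSN4, a general stress activator gene, and TAL1, the transaldolase gene of the pentose phosphate pathway. TAL1 had the highest promoter folds of these, 1.89 and 2.46 in K215/216A, 2.57 and 2.34 in K215/216R, and 2.50 and 2.20 in WT. GSH1 ranged from 1.36 to 1.81 and MSN4 from 1.48 to 1.97 over the 6 libraries. GRX8, a glutaredoxin gene, was the only one of the 34 with a window peak in both libraries of a strain, K215/216A, and in neither library of another, here K215/216R and WT. Such a difference from WT was found for 0 members and 3.67% of all genes, and from K215/216R for 0 members and 2.6% of all genes. The best peak of GRX8 stood above 43.0% and 59.6% of the peaks in K215/216A, and its pattern was the same at the lowest depth. At that depth the member TRR1 also had window peaks in both libraries of each mutant and in neither WT library. Its WT replicate 2 peak, with a fold of 1.26, would not have passed. The share of all genes with such a difference at that depth is not given here.

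GRX8 therefore had the strict window pattern, in both K215/216A libraries and in none of the other 4, which 94 genes, or 1.57% of all genes, had. No member had it, TSA1 included, since TSA1 had window peaks in all 6 libraries. By mean percentile of the best window peak in K215/216A, the genes of this pattern nearest in value to TSA1 were RPG1 at 89.5, YML045W and YML045W-A at 83.7, which share their peaks, RED1 at 81.4 and HTA1 at 73.0. TSA1 had 97.0, from the summit near YOX1 that all 6 libraries carried. The genes named are thus the highest of the pattern, and no likeness to TSA1 is shown.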

How the data were processed

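Per the submitters' processing notes, Bowtie 1.0.0, MACS2 2.1.1.20160226, bedtools 2.25.0 and the sacCer3 build were used. The control used in calling, the read filters and the handling of reads matching several places are not given in the sources used here. The authors deposited 1 peak list per immunoprecipitated library, with a fold (ratio of pileup to local background), a score (10 times −log10 q), the −log10 p and −log10 q at the summit, and the summit offset; every list reaches down to a q of 0.05. Their deposited merged lists were found to hold, for every region, the mean fold of the joined peaks of both libraries within a tolerance of 1e-05.

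Genes came from the RefSeq R64 annotation, with strand read from the systematic name. Pileup and background were solved from fold and p under a Poisson tail, with a whole-number pileup within 0.001 for 99.6% to 99.8% of peaks, after tests on simulated data. The lowest local background of a library served as its genome background and depth measure; without knowledge of the control, its meaning is limited. A strain's call needed both of its libraries. Only the percent of genes with a window peak was tested, by exact permutation over libraries (scipy 1.17.1). Other alternatives were other windows and promoter lengths, a −log10 q of at least 10, scaling to the lowest depth with a −log10 p of at least 2.55, left-out libraries and a replicate block. Poisson intervals cover counting error only. The members and lists were chosen with earlier results of these data known. Named genes were all members, the redox genes called in all 3 strains or in both libraries of 1 strain and neither of another, and the 5 genes nearest to TSA1 in each of 2 patterns; the promoter pattern was added after seeing the data.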

Additional observations from a re-analysis of the deposited data

How the results depend on the processing

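Of 162 values under another setting, 112 kept their side (counts within 1.5 times, differences by sign and threshold only), 45 moved and 5 reversed, all 5 on leaving out a library. At the lowest depth the differences in percent of genes with a window peak shrank to 1.62, 1.05, 0.566 and 1.33 points. At a −log10 q of at least 10, members with a window peak numbered 6 in K215/216A, 5 in K215/216R and 6 in WT, and members with a promoter summit to 1 in K215/216A (TSA1), 0 in K215/216R and 0 in WT. With 1000 bp upstream, 8 members were called in K215/216A, 6 in K215/216R and 6 in WT. The promoter shares of all genes under these settings are not given here, so these promoter counts are not read as results about the members. For the 34 other redox genes, the gene alone gave 17, 17 and 11 window calls in K215/216A, K215/216R and WT, and a −log10 q of at least 10 gave 15, 15 and 10. Their promoter calls were 3, 3 and 1 at that q, 4 and 4 in K215/216A and K215/216R with 250 bp, and 16, 15 and 10 in the 3 strains with 1000 bp. Over all genes the gene alone gave 2597, 2238 and 1986 calls, and a −log10 q of at least 10 gave 1924, 1593 and 1102. The TSA1 promoter pattern held 44 genes at the lowest depth and 39 with 250 bp. These counts move with the rule by construction, and no promoter share of all genes is given for these settings.

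Leaving out 1 library loosens the call rule. Members with a promoter summit then ranged from 3 to 6 in K215/216A, 3 to 5 in K215/216R and 3 to 6 in WT. By single library, the promoter shares of all genes were 31.2% and 32.5% in K215/216A, 23.0% and 28.4% in K215/216R, and 19.0% and 28.3% in WT. The other redox genes ranged from 21 to 32 for WT windows, and for promoters from 13 to 14 in K215/216A, 9 to 10 in K215/216R and 5 to 11 in WT. The strict window pattern held 100 to 182 genes and the TSA1 promoter pattern 98 to 233. The difference in percent of genes with a window peak ranged from −0.591 to 17.4 points for K215/216A minus WT, −5.18 to 12.8 for K215/216R minus WT, −1.02 to 10.2 for K215/216A minus K215/216R and −2.89 to 15.1 for both mutants minus WT. Without WT replicate 1 the 3 differences from WT were −0.591, −5.18 and −2.89; without K215/216R replicate 2, K215/216R minus WT was −1.82; without K215/216R replicate 1, K215/216A minus K215/216R was −1.02.

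With the replicate number as a block, the differences stayed at 8.38, 3.79, 4.59 and 6.09 points, with exact permutation p of 1, 0.5, 1 and 0.5. Deviations of same-numbered libraries correlated at −0.0132, 0.152 and −0.0304 over 6002 genes for K215/216A with WT, K215/216R with WT and K215/216A with K215/216R. Replicate 1 was also the shallower library of every strain. With 2 libraries per strain, these values do not settle whether the numbers pair the libraries. Joining summits within 50 bp, an alternative added after seeing the data, gave 48 member sites with 5 in all 6 libraries (10.4%), against 6.86% over all sites. Depth limits what a missing peak shows in K215/216R replicate 1 and WT replicate 1.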

Other observations

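Among the other redox genes, some patterns outside the named genes were chosen after their values were seen. SOD2, the gene of the mitochondrial superoxide dismutase, had a window peak above 99.4% and 99.7% of peaks in K215/216A, 99.3% and 99.3% in K215/216R, and 97.8% and 99.5% in WT, but no promoter summit in any library. GSH2, which encodes glutathione synthetase, had a promoter summit in both K215/216A libraries (fold 1.47 and 1.56) and both K215/216R libraries (1.73 and 1.81) and in neither WT library. GRX6, a glutaredoxin gene, had one in both K215/216A libraries (1.39 and 1.69) and in WT replicate 2 (1.53), and in neither K215/216R library. TKL1, a transketolase gene, had one in both K215/216R libraries (1.97 and 2.06) and in WT replicate 2 (1.77), and in neither K215/216A library. A missing promoter summit was not an absence of Cse4 nearby. Both K215/216A libraries had a summit inside TKL1, all 6 libraries had one inside GRX6, and all 6 had a window peak at GSH2. The promoter calls of GSH2, GRX6 and TKL1 were the same at the lowest depth. GRX4, another glutaredoxin gene, was the only one of the 34 without a window peak in any library.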
